A study of Mus musculus with 2 samples.

Results

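The mouse genes that write, copy and remove DNA methylation were followed through the fetal ovary, from germ cells about to enter meiosis to germ cells late in the prophase window, and across the supporting cells around them. The set holds 8 genes, namely Dnmt1, Uhrf1, Dnmt3a, Dnmt3b, Dnmt3l, Tet1, Tet2 and Tet3. They were picked by gene symbol from the 27998 genes of each count matrix, and every one of the 8 had exactly 1 entry. The study sequenced single cells of ovaries taken at embryonic day 15.5 (E15.5), in order to compare embryos lacking the glucocorticoid receptor GR, encoded by Nr3c1, with wild type. The KO library pooled the ovaries of 2 embryos homozygous for the GR deletion and the WT library those of 4 wild-type embryos, so that there was 1 library a genotype and no test between genotypes was possible. Both groups carried the strain label Nr3c1tm1.1Jda and the germ cell reporter Tg(Pou5f1-EGFP)2Mnn. The KO allele had lost the floxed exon 3 through Tmem163Tg(ACTB-cre)2Mrt, a Cre driven by the β-actin promoter, and heterozygous mice were intercrossed to obtain homozygotes. In both libraries, GFP-positive germ cells and GFP-negative ovarian cells had been sorted and recombined 60 to 40 before capture, so shares of germ and somatic cells were set by the sort.

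Methyl groups on cytosines of CpG dinucleotides are copied onto the new DNA strand after replication by the maintenance methyltransferase Dnmt1, which Uhrf1 brings to hemimethylated sites. Dnmt3a and Dnmt3b place methylation on unmodified DNA, and Dnmt3l is their catalytically inactive partner, best known from growing oocytes and prospermatogonia. Tet1, Tet2 and Tet3 are dioxygenases that oxidise 5-methylcytosine, after which the mark can be diluted by replication or replaced by base excision repair. Primordial germ cells lose most of their methylation during migration and gonad colonisation, and female germ cells pass through meiotic prophase with low methylation and regain it only in growing oocytes after birth.

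The WT library held 11430 barcodes and 168483330 unique molecular identifiers (UMIs, each standing for 1 captured transcript), and the KO library 17829 barcodes and 186117981 UMIs. After the study's limits on genes, UMIs and mitochondrial share, 9045 WT and 15502 KO cells remained, with medians of 15685 and 10194.5 UMIs a cell. The libraries had 75 barcodes in common, of which 27 belonged to cells kept in both. Clusters were named from marker genes as germ-like (6804 WT and 10217 KO cells), granulosa-like (923 and 2033), theca-like (769 and 1567), epithelia-like (399 and 1066), endothelia-like (30 and 136), perivascular-like (16 and 58) and immune-like (32 and 51), and 72 WT and 374 KO cells stayed unnamed. All 8 germ markers were above their limits in every germ-like cluster. Nr3c1 itself stood at 71.8 CPM (the UMIs of a gene scaled to a common total over the cells) in WT and 11.6 CPM in KO germ-like cells, and at 32.0 and 7.81 CPM in the somatic-like cells. It was thus lower in KO in both, and the paper reads the depletion of the Nr3c1 transcript in these libraries as evidence of the deletion. The counts come from 3′ ends of transcripts, so they do not show the deleted exon itself.

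Among the germ-like cells, 4 groups were named by their leading genes. Premeiotic-like cells (154 WT, 266 KO) had 7 of 8 premeiotic markers above their limits, among them Pou5f1, Sox2 and Rhox9 but not Nanog, and meiotic entry-like cells (632 and 1672) were led by Stra8, Rec8 and Zglp1. Early prophase-like cells (1473 and 2344) had 5 of 8 markers above their limits, Prdm9, Dmc1, Mei1, Mei4 and Meiob. Advanced prophase-like cells (1419 and 1184) had 4 of 8, Nobox, Lhx8, Sohlh1 and Ooep. Of the advanced markers that did not pass, Figla stood at 209 CPM in WT and 165 CPM in KO advanced cells, against 228 and 256 CPM in early prophase-like cells. Syce3 stood at 1353 and 1578 CPM, against 1320 and 1448 CPM. The meiotic entry-like group joined 2 clusters, 6 and 4, which also had 5 and 4 of the premeiotic markers above their limits. No member of the methylation set was used for clustering or naming. The premeiotic-like group itself had 5 of the 6 meiotic entry markers above their limits and already contained Stra8, at 604 CPM in WT and 757 CPM in KO. It thus bordered on meiotic entry and was not a pure population of primordial germ cells. At a finer clustering 140 cells had the premeiotic name, against 420 here.

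The 8 genes lie on 7 mouse chromosomes (GRCm38). Dnmt1 spans chr9:20907209-20959888 on the minus strand, Uhrf1 chr17:56303321-56323486 on the plus strand, Dnmt3a chr12:3806007-3914443 on the plus strand and Dnmt3b chr2:153649450-153687730 on the plus strand. Dnmt3l spans chr10:78041947-78063622 on the plus strand, Tet1 chr10:62804570-62908996 on the minus strand, Tet2 chr3:133463679-133545139 on the minus strand and Tet3 chr6:83362373-83459084 on the minus strand. All are protein coding, and none shares exon bases with another gene on its strand. The reads come from the 3′ ends of transcripts, so they neither separate transcription starts nor isoforms that end alike, and levels were compared between cells within a gene and never between genes.

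Since Dnmt1 and Uhrf1 were the members with the largest differences between cycling and resting cells, their promoters are shown. RefSeq (GRCm38.p6) gave 15 start-site windows for the 8 genes, each covering 250 bases before and 50 after the start. The windows were searched on both strands for the letters bound by E2F factors at S-phase genes, spelled TTTCCCGC, TTTCGCGC, TTTGCCGC or TTTGGCGC. Of all 32851 mouse windows 744 (2.26%) held at least 1 of these, against 2 of the members' 15, 1 of 3 for Dnmt1 and 1 of 2 for Uhrf1. By gene, 704 of 27025 (2.60%) held a match. The background was not matched for CpG content, and both matched member windows held 33 CpG dinucleotides, so enrichment was not tested. In the sequences, read 5′ to 3′ on the gene's strand, capitals mark the matched letters.
Dnmt1 promoter, chr9:20952574-20952873, minus strand: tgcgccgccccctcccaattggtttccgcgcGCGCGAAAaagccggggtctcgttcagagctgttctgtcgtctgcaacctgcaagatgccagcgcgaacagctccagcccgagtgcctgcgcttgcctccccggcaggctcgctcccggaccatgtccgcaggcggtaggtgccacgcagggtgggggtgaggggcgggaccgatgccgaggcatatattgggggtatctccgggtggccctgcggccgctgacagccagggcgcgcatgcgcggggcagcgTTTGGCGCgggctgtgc
Uhrf1 promoter, chr17:56304063-56304362, plus strand: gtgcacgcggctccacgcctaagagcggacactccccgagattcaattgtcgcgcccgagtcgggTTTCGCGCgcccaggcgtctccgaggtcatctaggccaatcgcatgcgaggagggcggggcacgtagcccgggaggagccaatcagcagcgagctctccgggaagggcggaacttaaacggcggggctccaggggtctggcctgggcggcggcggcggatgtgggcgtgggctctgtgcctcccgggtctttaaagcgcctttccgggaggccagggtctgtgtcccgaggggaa
In the Dnmt1 window TTTCGCGC lies on the opposite strand with its first base at -219 from the start and TTTGGCGC on the gene's strand at 33, and in the Uhrf1 window TTTCGCGC lies on the gene's strand at -185. These matches are letters only, and which start was used in these cells is not in the counts.

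With all stages pooled, germ-like cells differed from somatic-like cells in the Tet genes, Dnmt3a and Dnmt3b, which were lower in the germ line. For Dnmt1 and Uhrf1 the pooled levels differed by less than 1.5-fold. Tet1 stood at 2.80 CPM in WT germ-like cells (95% counting interval 2.51 to 3.11) and 19.1 CPM (17.5 to 20.8) in WT somatic-like cells. In KO the levels of Tet1 were 2.72 and 16.4 CPM. Dnmt3a stood at 16.3 against 68.5 CPM in WT and at 11.5 against 63.3 CPM in KO. These were the members with the widest gaps, with log2 ratios of germ-like over somatic-like of -2.77 and -2.59 for Tet1 and -2.07 and -2.46 for Dnmt3a in WT and KO. Dnmt3b (3.44 against 6.34 CPM in WT, 2.55 against 7.15 CPM in KO), Tet2 (10.4 against 16.9, 9.63 against 16.5) and Tet3 (15.4 against 24.3, 10.3 against 21.4) were lower in germ-like cells by smaller factors. The stages did not all share this: Tet3 in advanced prophase-like cells (33.9 CPM in WT, 28.8 in KO) lay above its somatic-like level, with intervals that did not overlap, and the interval of Tet1 in WT premeiotic-like cells (15.0 to 26.1) held its somatic-like level. In the same WT cells the intervals of Tet2 (11.7 to 21.8) and Dnmt3b (1.81 to 6.93, on 10 UMIs) held theirs as well. In WT advanced prophase-like cells the interval of Dnmt3b (4.36 to 6.25) overlapped the somatic-like one (5.46 to 7.33). In WT the call was lost for Dnmt3b without cells carrying markers of another class (-0.31, interval -1.10 to 0.62) and for Tet3 at a finer clustering (-0.50) and after thinning (-0.53). Dnmt1 was at 68.8 against 53.9 CPM in WT and 76.7 against 57.2 CPM in KO, and Uhrf1 at 37.3 against 31.5 and 34.6 against 32.0 CPM, differences under 1.5-fold. Single stages departed from these pooled levels. Dnmt1 stood at 134 CPM in premeiotic-like and 172 CPM in entry-like WT cells (153 and 155 CPM in KO), above its somatic-like level. Uhrf1 lay above its somatic-like level in advanced prophase (55.4 CPM in WT, 53.0 in KO) and below it in early prophase (21.8 and 24.5). With a difference of at least 1.5-fold taken as a call among genes with at least 100 UMIs, 5 of the 7 members counted were lower and 0 higher in both libraries, while 74.1% of all genes in WT and 74.0% in KO passed that limit in either direction (38.5% and 40.5% lower), so such a difference was the usual case between these cell types.

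Of 54 further genes of the methylation pathway, 52 had enough UMIs for this comparison, and 10 were higher and 17 lower in WT germ-like cells (11 and 20 in KO). Their median log2 ratio was -0.18 in WT and -0.25 in KO, against 0.0026 and -0.098 over all genes. Of all genes 74.1% in WT and 74.0% in KO were called either way, 38.5% and 40.5% as lower, so a call was the usual case here. The gene with the widest gap was Idh2, whose mitochondrial enzyme makes the α-ketoglutarate that Tet enzymes use, at 10.2 CPM in WT germ-like and 297 CPM in WT somatic-like cells (10.9 and 279 CPM in KO). Gadd45g (5.82 and 112 CPM in WT) and Zfp57, which guards imprinted methylation (1.43 and 20.7 CPM), were lower in germ-like cells as well. Tdg, the glycosylase that removes oxidised methylcytosine, stood at 4.88 against 30.6 CPM in WT and 4.73 against 29.0 CPM in KO; it was named after its values were seen. Higher in germ-like cells were Dppa3, which protects methylation in the early embryo and limits Uhrf1 (17.2 against 0.926 CPM in WT), Morc1, a repressor of transposons in the germ line (4.92 against 0.686), and Hells, a chromatin remodeller needed for methylation (1049 against 164).

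Within the germ line the maintenance pair separated. Dnmt1 was highest around meiotic entry and stayed low from early prophase on, while Uhrf1 was lowest in the entry-like cluster 4 and in early prophase and high in the entry-like cluster 6 and in advanced prophase. Dnmt1 stood at 134 CPM in WT premeiotic-like cells and 153 CPM in KO, at 172 and 155 CPM in entry-like cells, at 55.4 and 57.4 CPM in early prophase-like cells and at 56.0 and 51.9 CPM in advanced prophase-like cells. The step down lay between entry and early prophase, with log2 ratios of -1.64 (95% counting interval -1.73 to -1.54) in WT and -1.43 (-1.51 to -1.35) in KO. Uhrf1 stood at 33.2 and 36.1 CPM in premeiotic-like cells of WT and KO, at 33.1 and 29.9 CPM at entry, at 21.8 and 24.5 CPM in early prophase and at 55.4 and 53.0 CPM in advanced prophase. From early to advanced prophase Uhrf1 was higher by 1.35 (1.20 to 1.49) on the log2 scale in WT and by 1.11 (0.95 to 1.27) in KO, where Dnmt1 moved by 0.017 and -0.15.

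The entry-like group hid a contrast between its clusters. In cluster 6, which had 5 of 6 entry markers above their limits against 3 in cluster 4, Uhrf1 stood at 56.5 CPM in WT and 54.3 CPM in KO, and in cluster 4 at 16.7 and 18.0 CPM. Dnmt1 was at 208 and 195 CPM in cluster 6 and at 147 and 135 CPM in cluster 4. The counting intervals of the clusters did not overlap for either gene in either library, and the interval of Uhrf1 in cluster 4 (14.1 to 19.8 in WT, 16.1 to 20.1 in KO) lay below that of early prophase-like cells, so the level of Uhrf1 was already low in cluster 4, where that of Dnmt1 was still above its early prophase level in both libraries.

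**Figure D1:**
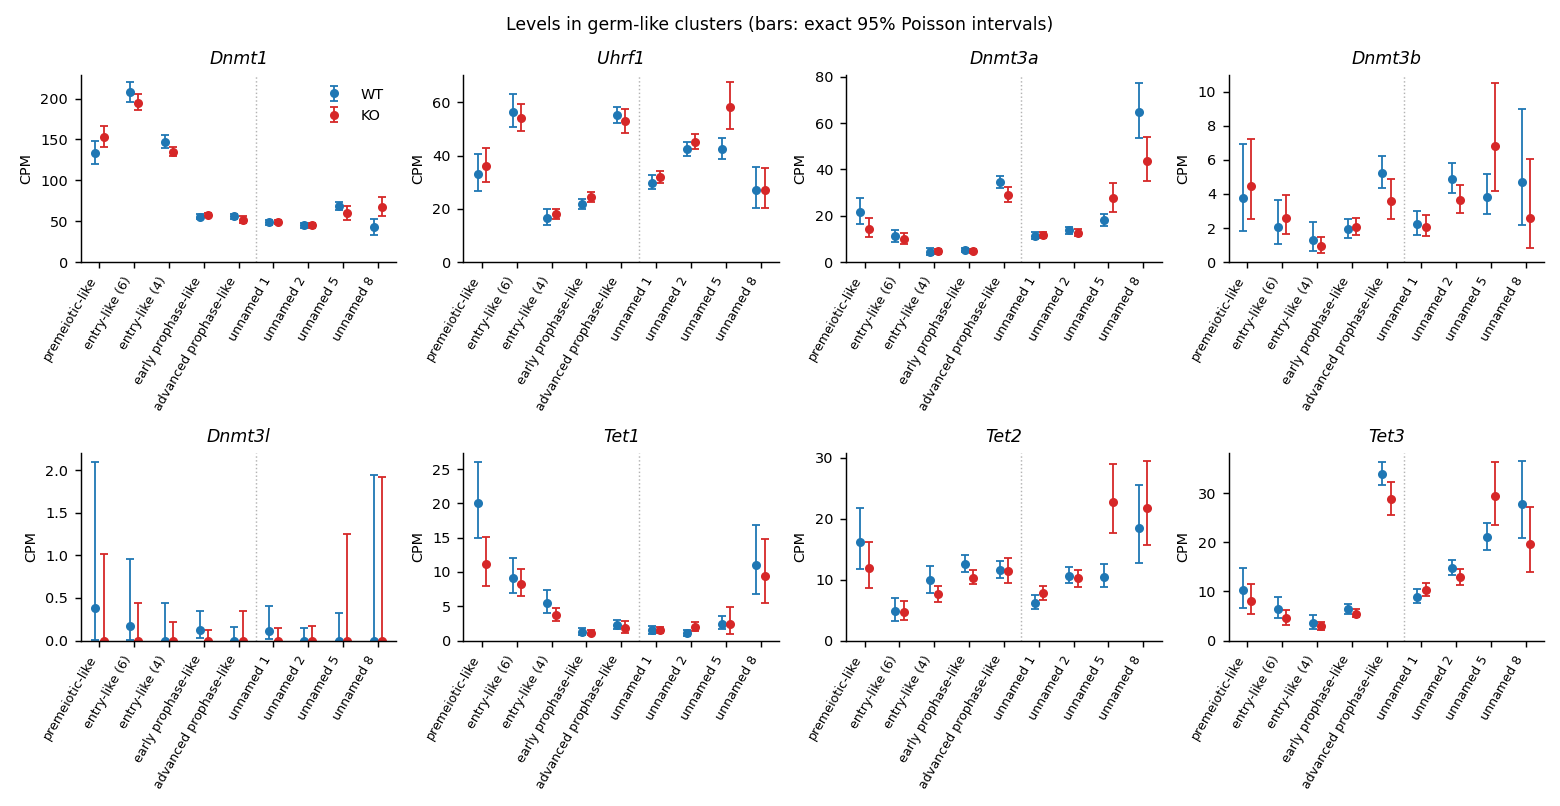
Level in CPM (y axis, 1 panel a gene) of the 8 methylation genes in the germ-like clusters (x axis), the named groups left and the unnamed clusters right of the dotted line, with WT in blue, KO in red and bars for the exact 95% Poisson interval. Dnmt1 is highest in entry-like cluster 6 (208 CPM in WT) and stands at 55.4 CPM in early prophase-like WT cells, and of the named groups the advanced one is highest in Dnmt3a and Tet3, at 34.6 and 33.9 CPM in WT.

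The de novo methyltransferases were low through entry and early prophase. Dnmt3a stood at 21.5 CPM in WT and 14.4 CPM in KO premeiotic-like cells, at 7.17 and 6.41 CPM in entry-like cells, at 5.15 and 4.69 CPM in early prophase and at 34.6 and 29.1 CPM in advanced prophase. The advanced over early ratio was 2.75 (2.48 to 3.03) on the log2 scale in WT and 2.64 (2.35 to 2.93) in KO, the widest of the members at that step in both libraries. Dnmt3b followed a like course at much lower counts, from 3.77 and 4.44 CPM in premeiotic-like cells through 1.63 and 1.48 CPM at entry and 1.93 and 2.05 CPM in early prophase to 5.24 and 3.56 CPM in advanced prophase. Its premeiotic values rest on 10 UMIs in WT and 16 in KO. Dnmt3l was close to undetected: 8 UMIs in 8 of the 9045 WT cells, 7 of those cells germ-like, and 0 UMIs in the 15502 KO cells. Its level over all cells was 0.0528 CPM in WT (0.0228 to 0.104) with an upper bound of 0.0213 CPM in KO, and no advanced prophase-like cell of either library held a UMI of it.

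The Tet genes each took a different course. Tet1 was highest in premeiotic-like cells, at 20 CPM in WT (15.0 to 26.1) and 11.1 CPM in KO (7.93 to 15.1). It stood at 7.03 and 5.24 CPM in entry-like cells, at 1.2 and 1.07 CPM in early prophase and at 2.26 and 1.78 CPM in advanced prophase. Tet1 was thus the member that dropped most along these groups, with a log2 ratio of advanced over premeiotic of -3.14 (-3.72 to -2.57) in WT; in KO its 40 premeiotic and 19 advanced UMIs together missed the limit of 100.
Tet2 kept to the narrowest range of the members with 100 UMIs, from 16.2 and 11.9 CPM in premeiotic-like cells to 7.81 and 6.64 CPM at entry, 12.6 and 10.3 CPM in early prophase and 11.5 and 11.4 CPM in advanced prophase. Tet3 resembled Dnmt3a, with 10.2 and 8.05 CPM in premeiotic-like cells, 4.76 and 3.42 CPM at entry, 6.43 and 5.50 CPM in early prophase and 33.9 and 28.8 CPM in advanced prophase. Its advanced over early ratio was 2.40 (2.15 to 2.65) in WT and 2.39 (2.11 to 2.67) in KO.

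Between the ends of the series, advanced against premeiotic, 3 of 7 members were higher and 2 lower by 1.5-fold in WT, where 47.2% of all genes passed that limit (27.9% higher and 19.3% lower). The log2 ratios were 1.74 for Tet3, 0.74 for Uhrf1, 0.69 for Dnmt3a, -1.26 for Dnmt1 and -3.14 for Tet1. At a finer clustering those of Uhrf1 and Dnmt3a were 0.23 (-0.19 to 0.69) and 0.17 (-0.35 to 0.75), no longer calls. In KO, 2 of the 5 members with 100 UMIs were higher (Tet3 by 1.84 and Dnmt3a by 1.01) and Dnmt1 was lower (-1.56), with 46.4% of all genes past the limit (24.6% higher and 21.8% lower). Taking the steps one at a time, 3 of 5 members were lower at entry than before it in WT and 4 of 6 in KO (25.7% and 28.9% of all genes called, 17.5% and 21.2% as lower). From entry to early prophase 1 was higher and 3 lower in WT and 2 higher and 2 lower in KO (33.6% of all genes in WT, 15.7% higher and 17.9% lower, and 31.3% in KO, 13.9% higher and 17.4% lower). From early to advanced prophase 4 of 6 were higher in each library, namely Dnmt3a, Dnmt3b, Tet3 and Uhrf1, where 52.9% of all genes in WT and 48.9% in KO passed the limit, 37.2% and 32.0% as higher. The courses of single genes are given as descriptions of 1 library each.

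Markers of somatic cells were scarce in the named germ groups, at medians between 0.753% and 1.47% of their level in the somatic classes, shares that equal between 0.516 and 0.930 CPM of Dnmt3a. Single markers ran higher, up to 11.1% in WT cluster 6, 7.95% in KO early prophase-like cells and 13.0% in KO advanced prophase-like cells. Which share the members followed was not tested, so the low Dnmt3a levels may hold more carried RNA than the medians give. Shares of cells with a UMI, after each cell was thinned to 3000 UMIs, ran the same way as the levels for Dnmt1, at 29.9% of premeiotic-like and 13.3% of advanced prophase-like WT cells (41.0% and 12.8% in KO). For Tet1 the thinned shares were 5.19% and 0.775% in WT and 3.38% and 0.760% in KO. Before thinning they were 76.6% and 51.2% of WT cells for Dnmt1 and 25.3% and 3.59% for Tet1.

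Of the pathway genes, 49 were counted between advanced and premeiotic WT cells, with 6 higher and 14 lower and a median log2 ratio of -0.21 (0.094 over all genes). In KO 43 were counted, with 8 higher and 20 lower and a median of -0.55 (0.044). Of all genes 27.9% were higher and 19.3% lower in WT, and 24.6% and 21.8% in KO. Dppa3 stood at 180 CPM in premeiotic-like and 16.0 CPM in advanced WT cells and at 174 and 6.65 CPM in KO. Lower in advanced cells of both libraries were also Idh2 (36.9 to 9.63 CPM in WT, 34.7 to 8.71 in KO) and the uracil glycosylase Ung (50.1 to 23.7, 58.5 to 21.0). Higher in both were Morc1 (2.26 to 7.12 CPM in WT, 3.05 to 8.99 in KO) and the methyl-CpG binding protein Mbd1 (9.80 to 16.9, 6.94 to 17.5). In WT, Cxxc4 (1.13 to 8.39 CPM) was higher and Tdg (10.5 to 3.79) was lower, and in KO Cxxc5 (33.8 to 14.1) was lower.

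Of the somatic classes, granulosa-like cells were the low class for the maintenance pair. Dnmt1 stood at 25.5 CPM in WT and 30.3 CPM in KO granulosa-like cells, at 77.3 and 74.3 CPM in theca-like cells and at 73.7 and 79.8 CPM in epithelia-like cells. Uhrf1 stood at 12 and 11.4 CPM in granulosa-like, 41.8 and 40.4 CPM in theca-like and 53.0 and 55.5 CPM in epithelia-like cells. For both genes the granulosa interval lay below those of the theca-like and epithelia-like cells in both libraries. The division genes Mki67 and Top2a had the same low class, at 14.2 and 54.6 CPM in WT and 22.3 and 89.7 CPM in KO granulosa-like cells, 117 and 305 CPM in WT and 116 and 263 CPM in KO theca-like cells, and 96.8 and 243 CPM in WT and 87.2 and 234 CPM in KO epithelia-like cells. Their part in the levels of the pair was not tested, and levels in resting cells alone are given further below. Theca-like and epithelia-like cells did not differ beyond their intervals for Dnmt1, and for Uhrf1 the epithelia-like interval lay higher in both libraries. Germ markers in granulosa-like cells stood at a median of 10.2% of their germ-like level in WT and 16.5% in KO, a share that equals 7.04 of the 25.5 CPM of Dnmt1 in WT if germ RNA carried all genes alike, and its part in these levels was not tested. In theca-like cells the share was 9.92% in WT and 4.22% in KO, and in epithelia-like cells 9.72% and 10.8%.

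Dnmt3a stood at 71.3, 68.6 and 67.7 CPM in WT granulosa-, theca- and epithelia-like cells, with overlapping intervals, and at 61.0, 77.8 and 59.2 CPM in KO, where the theca-like interval (72.5 to 83.3) lay above the others. Dnmt3b stood between 3.68 and 8.54 CPM in those classes of both libraries and higher in endothelia-like cells, at 21.6 CPM in WT (8 UMIs in 30 cells) and 17.9 CPM in KO (25 UMIs in 136 cells), whose intervals (9.31 to 42.5 and 11.6 to 26.5) met those of granulosa-like cells in WT but not in KO. Of these 3 classes, theca-like cells were highest in Tet1, at 25.2 CPM in WT and 25.1 CPM in KO, against 16.6 and 12.4 CPM in granulosa-like and 17.2 and 16.8 CPM in epithelia-like cells. Epithelia-like cells were the lowest of the 3 in Tet3, at 13.1 and 14.6 CPM, against 24.6 and 21.9 CPM in granulosa-like and 31.8 and 28.2 CPM in theca-like cells. Tet2 had the same low class, by a gap within the intervals in WT against granulosa-like cells, at 12.8 and 11.6 CPM, with 17.1 and 15.7 CPM in granulosa-like and 20.1 and 24.0 CPM in theca-like cells. In the immune-like class, with 32 WT and 51 KO cells, Tet2 stood at 27.3 and 31.5 CPM on 12 and 17 UMIs.

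**Figure D2:**
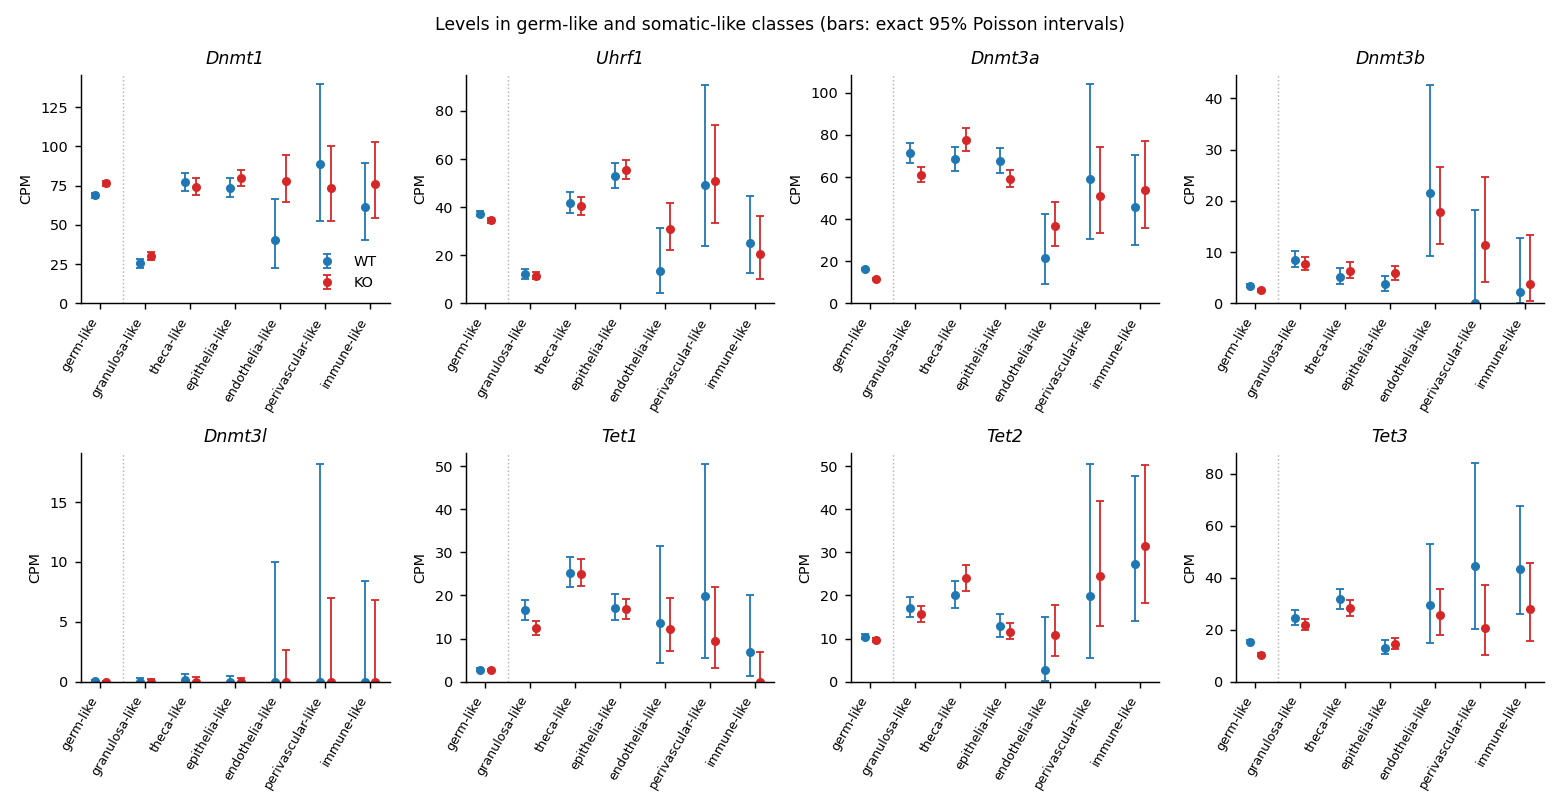
Level in CPM (y axis, 1 panel a gene) of the 8 methylation genes in germ-like cells, left of the dotted line, and in the somatic-like classes (x axis), with WT in blue, KO in red and bars for the exact 95% Poisson interval. Dnmt1 and Uhrf1 are low in granulosa-like cells (25.5 and 12 CPM in WT), and Dnmt3a stands between 67.7 and 71.3 CPM in the 3 large somatic classes of WT against 16.3 CPM in germ-like cells.

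Cells were also divided within a class into cycling cells, with an S or G2/M gene score above 0, and resting cells. The scores used no methylation gene, but the division is a range and not a cell type. The S list holds S-phase genes such as Tyms and Clspn. A gene that runs with them is thus higher in cycling cells by the way these were chosen, so the ratios are descriptions of the division. In theca-like cells Uhrf1 stood at 5.81 CPM in 374 resting WT cells (20 UMIs) and 66.2 CPM in 395 cycling WT cells (336 UMIs), and at 8.70 CPM and 69.3 CPM in KO. The log2 ratios of cycling over resting were 3.51 (2.86 to 4.24) in WT and 2.99 (2.54 to 3.49) in KO, which are 11.4-fold and 7.97-fold. Dnmt1 stood at 37.8 CPM in resting and 104 CPM in cycling WT cells, and at 37.4 and 108 CPM in KO, ratios of 1.46 and 1.53 on the log2 scale. Both genes were thus higher in cycling theca-like cells of both libraries, Uhrf1 by the larger factor, and they were the only members called of the 6 with enough UMIs (13.8% of all genes called in WT and 9.06% in KO, 11.0% and 6.85% as higher).

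Epithelia-like cells gave the same pair and again the larger factor for Uhrf1. Uhrf1 stood at 15.2 CPM in resting and 75.7 CPM in cycling WT cells and at 19.7 and 78.7 CPM in KO (log2 ratios 2.32 and 2.00). Dnmt1 stood at 37.7 and 95.4 CPM in WT and at 43.4 and 104 CPM in KO (1.34 and 1.26). These were the members called, 2 of 4 in WT and 2 of 6 in KO, with 12.1% of all genes called in each library, 9.40% in WT and 9.30% in KO as higher. Among cycling epithelia-like cells Uhrf1 stood at 84.5 CPM in S and 66.6 CPM in G2/M in WT and at 92.7 and 63.9 CPM in KO, with intervals that overlapped in WT and not in KO. In theca-like cells the S and G2/M levels of Uhrf1 were 73.0 and 54.3 CPM in WT and 72.8 and 63.1 CPM in KO, and in granulosa-like cells they ran the other way, at 11.6 and 19.5 CPM in WT and 11.8 and 16.2 CPM in KO, with overlapping intervals. Dnmt1 showed little difference between the phases in theca-like cells, at 106 and 100 CPM in WT and 107 and 109 CPM in KO.

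**Figure D3:**
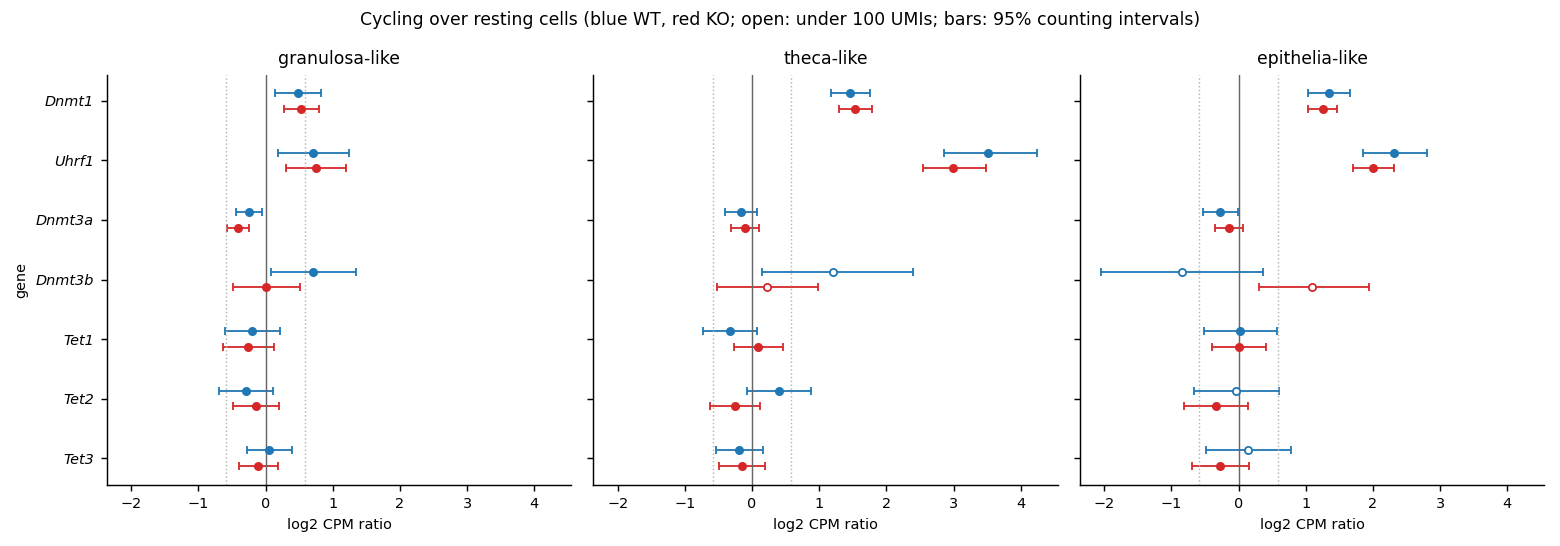
Log2 ratio of CPM in cycling over resting cells (x axis) for the members other than Dnmt3l (y axis) in the 3 large somatic classes (panels), with WT in blue, KO in red, open points under 100 UMIs, bars for the 95% counting interval and dotted lines at 1.5-fold. In theca-like cells Uhrf1 lies at 3.51 in WT and 2.99 in KO and Dnmt1 at 1.46 and 1.53, while the granulosa-like points of both genes lie between 0.48 and 0.75.

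In granulosa-like cells the groups called cycling and resting differed less in the pair. Mki67 and Top2a, division genes that are themselves part of the G2/M score, were low there even in cycling cells. They stood at 22.1 and 86.1 CPM in cycling WT granulosa-like cells and 33.1 and 134 CPM in KO, against 192 and 501 CPM in WT and 216 and 484 CPM in KO cycling theca-like cells, and 496 of the 923 WT granulosa-like cells lay near the limit between cycling and resting. Uhrf1 stood at 8.78 CPM in resting and 14.3 CPM in cycling WT cells and at 8.04 and 13.5 CPM in KO (log2 ratios 0.71 and 0.75), and Dnmt1 at 20.8 and 29.1 CPM in WT and 23.7 and 34.3 CPM in KO (0.48 and 0.53). In resting cells alone, Uhrf1 was not lower in granulosa-like than in theca-like cells (5.81 CPM in WT, 8.70 in KO), with overlapping intervals. Dnmt1 was lower than in resting theca-like cells (37.8 and 37.4 CPM), with intervals that did not overlap. Resting epithelia-like cells had Uhrf1 at 15.2 CPM in WT and 19.7 CPM in KO. WT called 2 of 7 members, Uhrf1 and Dnmt3b (6.30 to 10.2 CPM, a log2 ratio of 0.70 that was -0.28 after thinning and -0.33 without cells carrying markers of another class), and KO called 1 of 7, Uhrf1, where 8.23% and 14.7% of all genes were called, 6.82% and 12.6% as higher. Germ cell RNA moved with this comparison: the 8 germ markers together stood at 1803 CPM in cycling and 213 CPM in resting WT granulosa-like cells and at 3132 and 356 CPM in KO, all 8 were higher in cycling cells, and called doublets made up 8.87% and 0% of those cells in WT and 19.0% and 0.329% in KO. At that share of germ RNA 8.54 of the 13.5 CPM of Uhrf1 in cycling KO granulosa-like cells would be carried in. Without doublets the KO ratio of Uhrf1 was 0.18, and after removal of cells with markers of another class it was -0.33 in KO and 0.52 in WT. The germ markers were also higher in cycling theca-like cells (1531 against 350 CPM in WT, 555 against 407 in KO) and epithelia-like cells (1489 against 430, 1812 against 684). There the share carried in would be 5.0 of 66.2 CPM of Uhrf1 in WT theca-like cells and 1.51 of 69.3 CPM in KO, and without doublets the theca-like ratios were 3.47 and 3.05.

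Dnmt3a, Tet1, Tet2 and Tet3 were not called between cycling and resting cells of any of these 3 classes in either library, although Tet2 and Tet3 were not counted in WT epithelia-like cells, with 94 and 96 UMIs. Dnmt3a was at 73.3 resting and 65.4 cycling CPM in WT theca-like cells and 80.7 and 75.1 CPM in KO. Of the pathway genes, 7 of 41 were higher and 0 lower in cycling WT theca-like cells and 8 of 42 higher and 0 lower in KO, with medians of 0.11 and 0.14 (0.029 and -0.016 over all genes). Of all genes 13.8% in WT and 9.06% in KO were called, 11.0% and 6.85% as higher. The called pathway genes were led by replication genes: Lig1 (52.9 to 244 CPM in WT, 55.2 to 261 in KO), Pcna, the sliding clamp (29.6 to 114, 24.7 to 93.5), Hells (70.6 to 277, 66.3 to 214) and Ung (21.5 to 48.1, 15.4 to 53.8). Cycling cells had themselves been chosen by other genes of S and G2/M. Neil3, a glycosylase of base excision repair, stood at 23.6 CPM in cycling WT and 26.1 CPM in cycling KO theca-like cells, with no more than 1 UMI in the resting cells of each library. Premeiotic-like germ cells were nearly all scored as cycling, leaving 6 resting WT and 12 resting KO cells, which is too few for a stable level. There 1 of 1 member counted was called in WT (Dnmt1, 135 against 79.2 CPM, the latter on 6 UMIs) and 0 of 2 in KO (42.5% of all genes in WT, 29.3% as higher, and 28.1% in KO). The score also called 94.4% of WT and 92.5% of KO early prophase-like cells cycling, and 82.0% and 82.3% of advanced prophase-like cells. Those groups were named by meiotic prophase genes, so in germ cells the score does not stand for mitotic division.

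Between genotypes the differences of the members were small. In germ-like cells Tet3 stood at 15.4 CPM in WT and 10.3 CPM in KO, a log2 ratio of KO over WT of -0.59 (-0.69 to -0.48). It was the member called, 1 of 7, where 5.30% of all genes passed 1.5-fold and 3.52% did so as lower. Dnmt3a stood at 16.3 and 11.5 CPM (-0.50), Dnmt3b at 3.44 and 2.55 CPM (-0.43), Dnmt1 at 68.8 and 76.7 CPM (0.16), Uhrf1 at 37.3 and 34.6 CPM (-0.11), Tet2 at 10.4 and 9.63 CPM (-0.12) and Tet1 at 2.80 and 2.72 CPM (-0.039). Over all genes the median ratio was -0.054.

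The make-up of the germ-like cells differed between the libraries. Advanced prophase-like cells, the highest of the named groups in Tet3 and Dnmt3a, made up 20.9% of WT and 11.6% of KO germ-like cells, and entry-like cells, where both were low, 9.29% and 16.4%. Within the groups 0 of 3 members were called in premeiotic-like cells (4.18% of all genes), 0 of 6 in entry-like (4.80%), 0 of 6 in early prophase-like (3.83%) and 0 of 6 in advanced prophase-like cells (4.62%). For Tet3 the ratios within these groups, in that order, were -0.34, -0.48, -0.23 and -0.24, and for Dnmt3a -0.57, -0.16, -0.14 and -0.25. With the KO germ clusters weighted as in WT the ratio was -0.08 for Tet3 and -0.09 for Dnmt3a. The weighting covered the unnamed clusters as well. Of these, both genes were higher in KO in clusters 1 and 5 and lower in clusters 2 and 8. In cluster 5 Tet3 stood at 21.1 CPM in WT and 29.5 CPM in KO and Dnmt3a at 18.0 and 27.5 CPM. Its median depths were 31779 UMIs in WT and 4926 UMIs in KO, and its part in the weighted ratios was not tested. Of the stages, the premeiotic-like one had Tet1 at 20 CPM in WT and 11.1 CPM in KO (-0.85, -1.48 to -0.23) on 53 and 40 UMIs, under the limit of 100. In every one of these comparisons the genotype, the pool of embryos, the sort and the capture cannot be told apart.

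**Figure D4:**
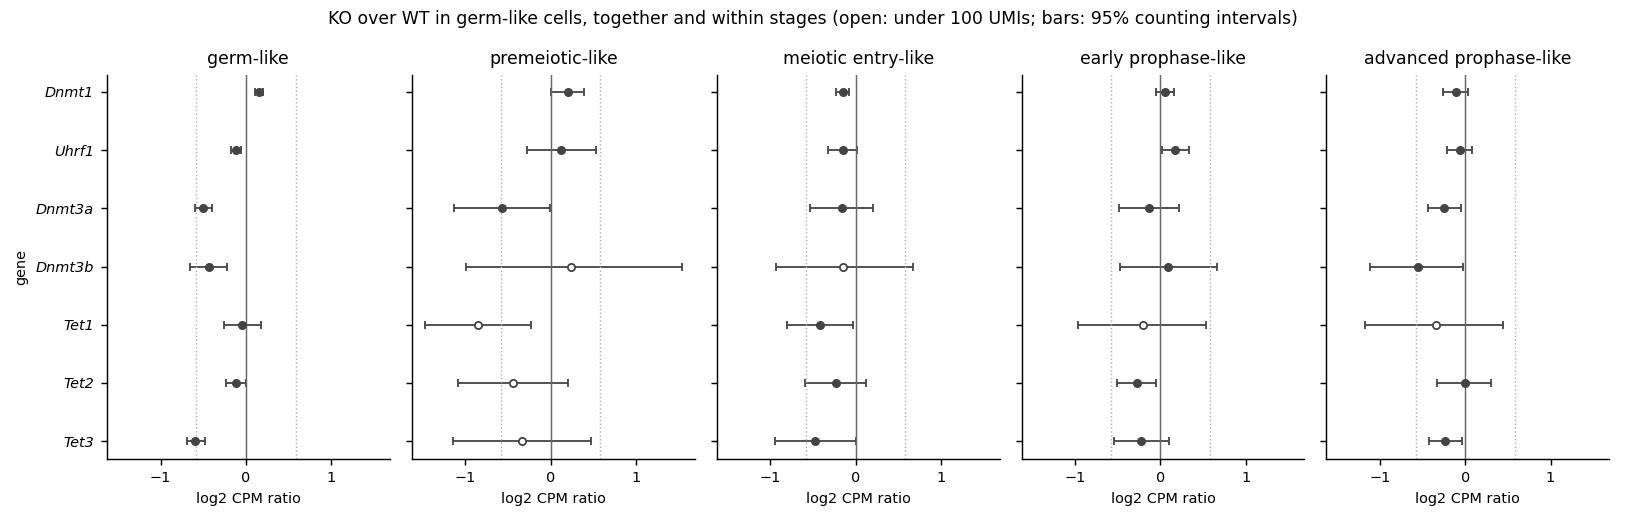
Log2 ratio of CPM in KO over WT (x axis) for the members other than Dnmt3l (y axis) in all germ-like cells and within the named germ groups (panels), with open points under 100 UMIs, bars for the 95% counting interval and dotted lines at 1.5-fold. Tet3 lies at -0.59 over all germ-like cells and at -0.24 within advanced prophase-like cells.

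In the somatic classes 0 of 7 members were called in granulosa-like cells (4.79% of all genes), 0 of 7 in theca-like cells (3.15%) and 1 of 7 in epithelia-like cells (1.94%, with 1.12% as higher). The called gene was Dnmt3b, at 3.68 CPM in WT (27 UMIs) and 5.84 CPM in KO (77 UMIs), a log2 ratio of 0.67 whose interval ran from 0.019 to 1.36. The ratio was 0.56 under common limits and 0.40 by the mean over cells, both short of 1.5-fold, and the removal of doublets (0.69) or thinning (1.28) left too few UMIs for a call. The ratio of Tet1 in granulosa-like cells was -0.43 (-0.70 to -0.15), from 16.6 to 12.4 CPM. The ratios of Dnmt1 and Uhrf1 lay between -0.066 and 0.25 in these 3 classes. Of the pathway genes, 0 of 52 were higher and 2 lower in germ-like cells, Cxxc4 (2.97 to 1.40 CPM) and Cxxc5 (11.8 to 7.10), which both encode CXXC zinc finger proteins that bind unmethylated CpG. The median of the pathway genes there was -0.079, and 5.30% of all genes were called, 3.52% as lower. In advanced prophase-like cells 6 of 49 pathway genes were lower and 0 higher, among them Cxxc4 (8.39 to 3.37 CPM), Dppa3 (16.0 to 6.65) and Gadd45g (13.7 to 7.02), with a median of -0.16 against -0.066 over all genes. Of all genes 4.62% were called there. Markers of late stages were lower in the same KO cells, Sohlh1 at 58.2 CPM in WT and 17.4 CPM in KO and Lhx8 at 23.9 and 13.3 CPM, and the part of stage within this group in its ratios was not tested. In granulosa-like cells 2 of 48 were higher (Hells, 131 to 215 CPM, and Lig1, 63.5 to 97.4). Germ RNA moved with these, with germ markers at 10.2% of their germ-like level in WT and 16.5% in KO, called doublets at 4.66% and 10.6% of the cells, and Hells at 1049 and 1177 CPM in germ-like cells, and its part was not tested. In theca-like cells 0 of 46 were called, and in epithelia-like cells 1 of 44 was higher (Neil3, 4.36 to 7.13 CPM).

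**Figure D5:**
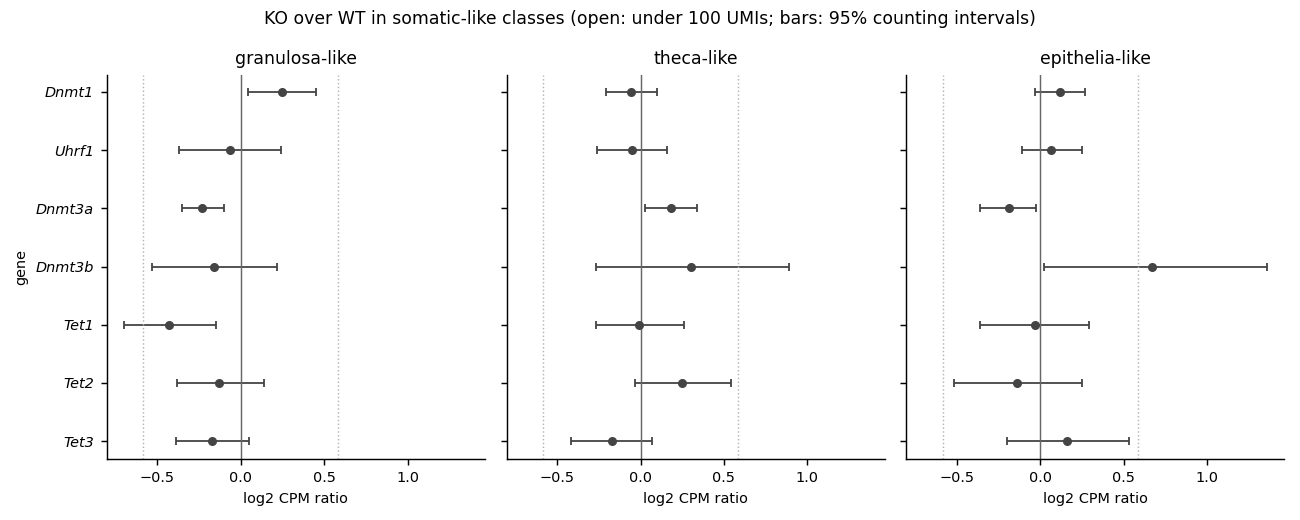
Log2 ratio of CPM in KO over WT (x axis) for the members other than Dnmt3l (y axis) in the 3 large somatic classes (panels), with bars for the 95% counting interval and dotted lines at 1.5-fold. Dnmt3b in epithelia-like cells, at 0.67, is the member past 1.5-fold.

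The genes whose levels ran most like each member were sought among 13113 genes over the 7 main groups of WT cells, all from 1 library, by Pearson's correlation of levels. Dnmt1 was most like Vars (r = 0.967 in WT and 0.947 in KO), Donson (0.966 and 0.815) and Spc24 (0.962 and 0.920). Uhrf1 was most like Nap1l1 (0.983 and 0.919), Diaph3 (0.980 and 0.967) and Ado (0.951 and 0.901). Dnmt3a was most like Ago2 (0.998 and 0.983), Prpf4b (0.995 and 0.989) and Dcaf8 (0.995 and 0.978), and Dnmt3b like Nhlrc1 (0.994 and 0.709), Nupr1l (0.982 and 0.598) and Ago1 (0.978 and 0.929). Among the Tet genes, Tet1 was most like Ppm1f (0.989 and 0.827), Ergic1 (0.987 and 0.968) and Srebf2 (0.986 and 0.941). Tet2 was most like Deaf1 (0.948 and 0.919), Hba-a1 (0.941 and 0.099) and Yars (0.936 and 0.744), and Tet3 like Snx2 (0.983 and 0.839), Saraf (0.981 and 0.990) and Bcl11a (0.979 and 0.863). With 7 points and many genes such values are descriptions, as the drop of Hba-a1 in KO shows, and Dnmt3l had too few UMIs to be placed.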

How the data were processed

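The deposited files held raw UMI counts per gene and barcode for each library, whole numbers that the authors made with Cell Ranger 3.0.2 (per the file headers) on mm10; the submitters' processing notes also name Seurat 3.2.3. The study's limits were applied per library: 1500 to 6500 genes and 5500 to 40000 UMIs in WT, 1200 to 5500 genes and 3000 to 30000 UMIs in KO, and under 10% mitochondrial UMIs, which sets a different depth floor for each genotype. Cells were clustered with scanpy 1.11.5 and Leiden (leidenalg 0.10.2, resolution 0.5, seed 1) on 2000 variable genes without the members or their pathway genes, and named where at least 3 markers were in over 10% of cells and 2-fold above the other cells. For the germ stages the limits were 5% of cells and 1.25-fold above the other germ-like cells. Clusters mixing classes, by a threshold of 25% set after the data were seen, stayed unnamed. Doublets were called by Scrublet (expected rate 8%) and kept, with their removal as an alternative. Raw counts were summed per group and library and scaled to CPM with exact 95% Poisson intervals; ratios have exact conditional binomial intervals. Both hold counting error alone. No p-value was computed, since the cells of 1 library do not replicate a genotype.

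A call meant a difference of 1.5-fold or more in a gene whose UMIs on both sides added up to 100 or more. On simulated Poisson counts 98.0% and 98.9% of 2-fold changed genes were recovered, up and down, for KO theca-like cycling over resting (8174 genes). The simulation held no spread between cells, embryos or libraries, so it covers counting error alone. Cycling was scored with lists holding no member. The members and lists were chosen with earlier results of these data known. All 8 members are named. Of 54 pathway genes those called are named, at most 6 a comparison by size except 1 that is not reported here, and beside each member the 3 genes with the highest correlation of log2(CPM + 10). Alternatives were common limits, doublets removed, thinning, removal of cells with 2 or more markers of another class, scaling without mitochondrial, ribosomal and haemoglobin genes, the mean over cells, a minimum of 20 UMIs, a 2-fold call, resolution 1.0 and other cycling limits. Sequences are RefSeq promoters (GRCm38.p6).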

Additional observations from a re-analysis of the deposited data

How the results depend on the processing

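Of 143 counts of members under an alternative 102 stayed within 1.5 times the reported count and 41 moved. The counts were compared by size alone, not by direction or by which members were called. Of 841 ratios of single members 729 stayed, 107 moved and 5 reversed. The causes were not tested. With 1 library a genotype nothing measures the spread between embryos, and depth limits Dnmt3l, Dnmt3b and, before meiosis, the Tet genes. No paired analysis was possible because each genotype had 1 library and no label pairs them.

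At a 2-fold call WT germ-like over somatic-like called 2 members, WT advanced over premeiotic 3, and WT and KO granulosa-like cycling, WT premeiotic cycling, germ-like KO over WT and epithelia-like KO over WT 0. At resolution 1.0 WT advanced over premeiotic called 2, WT and KO granulosa-like cycling 0 and KO premeiotic cycling 1. Under common limits, WT granulosa-like cycling and KO over WT in germ-like and in epithelia-like cells called 0. Without doublets WT and KO granulosa-like cycling and epithelia-like KO over WT called 0. Thinned to 3000 UMIs, WT granulosa-like and premeiotic cycling and epithelia-like KO over WT called 0 and WT theca-like cycling 1. Without cells carrying markers of another class, WT and KO granulosa-like and WT premeiotic cycling called 0 and WT and KO theca-like cycling 1, where fewer UMIs were left. By the mean over cells, WT granulosa-like cycling called 1, and KO granulosa-like cycling and KO over WT in germ-like and epithelia-like cells 0. At a minimum of 20 UMIs premeiotic cycling called 6 in WT and 3 in KO. Without cells near the cycling limit, WT granulosa-like and premeiotic cycling called 0 and KO granulosa-like and premeiotic cycling 2. With cycling set above the class median, WT granulosa-like cycling called 1, WT premeiotic 0 and KO granulosa-like 2. Of the alternatives added after the data were seen, the limit of at least 8 against at most 2 cycle UMIs called 3 in KO granulosa-like cells, and the KO clusters weighted as in WT called 0 in germ-like KO over WT, where Tet3 otherwise ranged from -0.70 to -0.53.

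The ratios that reversed were all of called members. Dnmt3b did so in WT granulosa-like cycling (-0.28 thinned, -0.33 without cells with other markers). Dnmt1 did so in WT premeiotic cycling (-0.45 thinned, -0.23 without cells near the limit). Uhrf1 did so in KO granulosa-like cycling (-0.33 without cells with other markers). Tet2 in WT advanced over premeiotic, which was not called, changed sign after thinning and was counted as moved. In theca-like cells Uhrf1 ranged from 3.19 to 4.54 in WT and from 2.69 to 3.67 in KO over all alternatives. No value could be had for WT premeiotic cycling at resolution 1.0, for premeiotic cycling of either library at the stricter cycle limit, or for epithelia-like KO over WT without cells with other markers.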

Other observations

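The germ-like cells that stayed unnamed held the members at these levels. In cluster 1 (1319 WT and 2401 KO cells) Tet3 stood at 8.87 CPM in WT and 10.3 CPM in KO and Dnmt3a at 11.4 and 11.7 CPM, and in cluster 2 (1297 and 1717 cells) Tet3 stood at 14.8 and 12.9 CPM and Dnmt3a at 13.8 and 12.7 CPM. Both clusters lay between the early and the advanced prophase-like cells in these 2 genes and in Uhrf1 (29.9 and 31.9 CPM in cluster 1, 42.6 and 45.3 CPM in cluster 2). Cluster 5 differed in depth between the libraries, with a median of 31779 UMIs in 427 WT cells and 4926 UMIs in 500 KO cells, and there Tet2 stood at 10.5 CPM in WT and 22.7 CPM in KO. Cluster 8 (83 and 133 cells) carried granulosa genes, called doublets made up 36.1% and 57.1% of it, and Dnmt3a stood at 64.7 and 43.6 CPM there.

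In the smallest somatic classes the counts were low. Perivascular-like cells (16 WT, 58 KO) had Dnmt1 at 88.9 CPM in WT on 18 UMIs and 73.5 CPM in KO on 39 UMIs. Immune-like cells had Dnmt1 at 61.5 and 75.9 CPM and Tet1 at 6.83 CPM on 3 UMIs in WT and 0 UMIs in KO, which allows up to 6.83 CPM.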
